A study of Homo sapiens with 12 samples.

Results

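The genes described here encode the nuclear part of the respiratory chain and of the ATP synthase, the 5 complexes of oxidative phosphorylation, in U87 cells. They were chosen by symbol alone (NDUFA, NDUFB, NDUFC, NDUFS, NDUFV, SDHA to SDHD, UQCR, CYC1, COX4 to COX8 and ATP5 names, without pseudogenes and assembly factors), which gave 88 of the 35741 genes counted. Of these, 84 encode a protein of complexes I to V and 4 do not (the antisense or divergent transcripts NDUFA6-DT, NDUFB2-AS1 and NDUFV2-AS1 and the readthrough gene ATP5MF-PTCD1). A filter on low counts kept 80 of the 88 for testing, 79 subunit genes and NDUFV2-AS1. NDUFA3, COX4I2, COX6B2, COX7A1 and ATP5MGL, with at most 8 counts in any library, and the other 3 transcripts that encode no subunit stayed untested.

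U87 is an established human glioblastoma cell line, and mRNA was sequenced from 12 libraries in 4 groups of 3. The PNA-10b group received sgPNA-10b, an anti-seed peptide nucleic acid (a synthetic strand that pairs with the seed of a microRNA) directed at miR-10b. The PNA-21 group received sgPNA-21, directed at miR-21, and the PNA-10b+21 group received both, each sgPNA at 150 nM for 72 h in the nanoparticles that the labels abbreviate BNP. Control cells were untreated wild-type U87 cells, so a difference from Control cannot be told apart from an effect of the particles or of any PNA. The total PNA dose was higher in PNA-10b+21 cells than in either single arm. Whether replicates came from separate cultures is not stated, and the p-values below measure the spread between these libraries, which may be technical.

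In oxidative phosphorylation, complexes I and II pass electrons from NADH and succinate to ubiquinone, complex III passes them on to cytochrome c, and complex IV to oxygen. Complexes I, III and IV pump protons across the inner mitochondrial membrane, and complex V, the ATP synthase, makes ATP as the protons flow back. Complexes I, III, IV and V each also hold subunits encoded in mitochondrial DNA, which were not analysed here, whereas all subunits of complex II are nuclear. Glioblastoma lines are known for high aerobic glycolysis beside their respiration.

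Sequences that bear on the comparison are shown first. The microRNA that sgPNA-21 is directed at is encoded at chr17:59841273-59841294 on the plus strand (RefSeq, GRCh38.p14), and its mature strand is printed with the seed, bases 2 to 8, in capitals.
hsa-miR-21-5p: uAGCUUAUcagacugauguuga
The complement of this seed, ATAAGCT, was sought in the longest annotated 3′ UTR of each gene (GENCODE release 29), where 5 of 79 tested members held it (6.33%), against 1269 of 12237 genes with a 3′ UTR (10.4%). The members' 3′ UTRs were also shorter, with a median of 449 bases against 1396 bases over all these genes. The 5 members were SDHC, NDUFS1, COX6C, ATP5F1E and ATP5IF1, and 0 of the 5 rose in PNA-21 or PNA-10b+21 cells. With 15.2% and 13.6% of all genes rising in these arms, a count of 0 among 5 is near the background. Their median log2 fold change against Control was 0.00 in PNA-21 cells, against 0.11 for the members without the match. ATP5IF1, the inhibitor of the ATP synthase, held the match and is the 1 member that fell, so its site is shown with those of SDHC and NDUFS1, the match in capitals.
ATP5IF1: atctgaaagcaATAAGCTctttggtcttc
SDHC: aaggactgattATAAGCTtcatggtacag
NDUFS1: ggaaccactaaATAAGCTagtatgaaata
A match of letters is a description and does not make a target site.

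Promoters of respiratory genes are known for sites of NRF1, GABP (an ETS factor) and YY1. RefSeq promoters (GRCh38.p14, 250 bases before to 50 after the gene start) could be matched to 66 of the 84 subunit genes. On either strand, the NRF1 half-site GCATGCGC was in 12 of the 66 (18.2%), against 3.27% of 27305 promoters of the same length, and the longer NRF1 core that contains it in 4 (6.06%, against 1.36%). The ETS letters CGGAAG were in 27 of the 66 (40.9%, against 19.9%), and the longer CCGGAAGT in 10 (15.2%, against 4.44%). The YY1 letters AAGATGGC were in 10 (15.2%, against 3.03%), and the longer YY1 motif that contains them in 4 (6.06%, against 0.916%). Promoters of SDHB, NDUFS6 and COX8A are printed because these 3 genes rose together in PNA-21 and in PNA-10b+21 cells and between them carry all 3 kinds of match, in capitals. The window of SDHB lies at chr1:17053983-17054282 on the minus strand, NDUFS6 at chr5:1801157-1801456 on the plus strand and COX8A at chr11:63974370-63974669 on the plus strand.
SDHB: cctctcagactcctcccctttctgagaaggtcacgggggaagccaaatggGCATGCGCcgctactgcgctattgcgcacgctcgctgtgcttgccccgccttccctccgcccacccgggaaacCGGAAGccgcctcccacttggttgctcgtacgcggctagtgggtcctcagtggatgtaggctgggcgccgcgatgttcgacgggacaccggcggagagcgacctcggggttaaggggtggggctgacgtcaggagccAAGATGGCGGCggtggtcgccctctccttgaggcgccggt
NDUFS6: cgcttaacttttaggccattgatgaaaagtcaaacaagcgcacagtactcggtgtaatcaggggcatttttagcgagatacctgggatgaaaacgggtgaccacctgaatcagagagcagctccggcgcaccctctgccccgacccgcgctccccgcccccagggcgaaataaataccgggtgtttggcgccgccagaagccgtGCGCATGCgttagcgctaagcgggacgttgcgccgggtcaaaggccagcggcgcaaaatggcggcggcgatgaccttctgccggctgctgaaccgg
COX8A: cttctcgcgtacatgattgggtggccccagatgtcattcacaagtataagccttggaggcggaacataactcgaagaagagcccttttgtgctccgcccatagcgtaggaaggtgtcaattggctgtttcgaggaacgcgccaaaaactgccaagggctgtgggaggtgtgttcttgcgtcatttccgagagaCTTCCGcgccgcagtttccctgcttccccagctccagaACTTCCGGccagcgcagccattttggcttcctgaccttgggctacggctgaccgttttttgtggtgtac
In SDHB the NRF1 half-site began 200 bases before the gene start and the YY1 letters 11 bases after it. In NDUFS6 the half-site stood on the opposite strand, 46 bases before the start. The capitals of COX8A are ETS letters on the opposite strand. Of the other members that rose in both arms, NDUFS3, COX6A1 and ATP5F1C held at least 1 of these matches. Promoters of NDUFAB1, NDUFS8, UQCRC2, UQCRFS1, COX5A and ATP5MC1, which also rose in both, held none. CYC1, ATP5F1B, ATP5F1D and ATP5MC3 had no matched promoter. Whether the matches go with a rise was not tested.

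Total counts per library ran from 12846676 in Control replicate 3 to 18305820 in PNA-21 replicate 3. VIM, CD44 and CHI3L1, genes of mesenchymal glioma cells, were abundant (lowest 1543, 1280 and 731 CPM, counts scaled to the library total), whereas the glial markers GFAP (at most 4.89 CPM) and SOX2 (at most 0.118 CPM) were low. PTPRC and CD68, markers of immune cells, and CDH5 and VWF of endothelium stayed at or under 1.98 CPM, whereas CSF1R (9.72 to 17.97 CPM), KDR (4.75 to 7.51) and PECAM1 (1.41 to 5.08) were detected. Of the neuron markers, SNAP25 (60.8 to 86.7 CPM) and MAP2 (45.1 to 56.7) were present and RBFOX3 was at most 0.625 CPM. The summed level of 4 fibroblast or mesenchymal markers (COL1A1, COL1A2, PDGFRB and THY1, the last at or near 0) differed between groups. It was 3592 to 4083 CPM in PNA-10b cells, 3190 to 3399 CPM in PNA-21 cells and 3033 to 3659 CPM in PNA-10b+21 cells, against 5064 to 5864 CPM in Control cells. The 4 neuron markers summed to 127 to 135 CPM in PNA-10b cells, 117 to 123 CPM in PNA-21 cells and 112 to 123 CPM in PNA-10b+21 cells, against 137 to 145 CPM in Control cells. The 3 microglia or macrophage markers, nearly all CSF1R, summed to 13.3 to 14.2, 10.6 to 13.1 and 11.3 to 12.9 CPM in these groups, against 17.4 to 18.3 CPM in Control cells. The endothelial sums overlapped between all groups. The glial sums of PNA-10b cells (3974 to 4313 CPM) lay under those of Control cells (4332 to 4949 CPM), and those of the other groups overlapped Control. Of its abundant genes, CHI3L1 had a mean of 845 CPM in PNA-10b cells, against 1392 CPM in Control cells. VIM (1867 against 1842 CPM) and CD44 (1450 against 1454 CPM) were near Control. The part of such shifts in the results below was not tested. In bulk RNA, fewer cells of a kind and less RNA per cell cannot be told apart.

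By complex, the summed level of the subunit genes was higher in PNA-21 and PNA-10b+21 cells than in Control cells by 4 to 13%, and within 1% of Control in PNA-10b cells (ratios of 0.995 to 1.01, or 1.01 to 1.03 without scaling factors). The values are CPM scaled by edgeR's TMM factors, as mean ± SD over 3 libraries, and the sums have no test. Complex I summed to 2242 ± 34.7 CPM in PNA-10b cells, 2391 ± 28.4 in PNA-21 cells and 2408 ± 71.9 in PNA-10b+21 cells, against 2229 ± 69.8 in Control cells. All 3 PNA-21 and all 3 PNA-10b+21 libraries lay above the highest Control library for complex I (lowest 2374 and 2347 CPM, against a highest of 2309 CPM). Complex II, the smallest, summed to 245 ± 3.59, 275 ± 4.12 and 267 ± 5.87 CPM in the same treated groups, against 246 ± 12.2 CPM in Control cells. Complex III summed to 906 ± 20.5 CPM in PNA-10b cells, 985 ± 30.7 in PNA-21 cells and 1013 ± 39.9 in PNA-10b+21 cells, against 900.0 ± 46.6 in Control cells, the widest difference for PNA-10b+21 cells (ratio 1.13). For complexes II and III, too, no PNA-21 or PNA-10b+21 library fell into the Control range.
Complex IV differed least, with 1355 ± 21.2, 1401 ± 13.9 and 1434 ± 71.4 CPM in the treated groups in that order, against 1344 ± 92.6 CPM in Control cells. Its Control libraries ran from 1265 to 1446 CPM and covered all 3 PNA-21 libraries. Complex V summed to 2620.2 ± 89.8, 2819.95 ± 77.0 and 2876 ± 96.9 CPM, against 2633 ± 135 CPM in Control cells, and the lowest PNA-21 library (2746 CPM) lay under the highest Control library (2783 CPM). Together the 84 genes took 0.797% of all counts in PNA-21 and 0.807% in PNA-10b+21 cells, against 0.719% in Control cells. Control replicate 1 was the highest Control library for every complex, and for complex IV the PNA-21 log2 ratio of 0.06 ran from 0.01 to 0.11 when single libraries were left out.

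**Figure D1:**
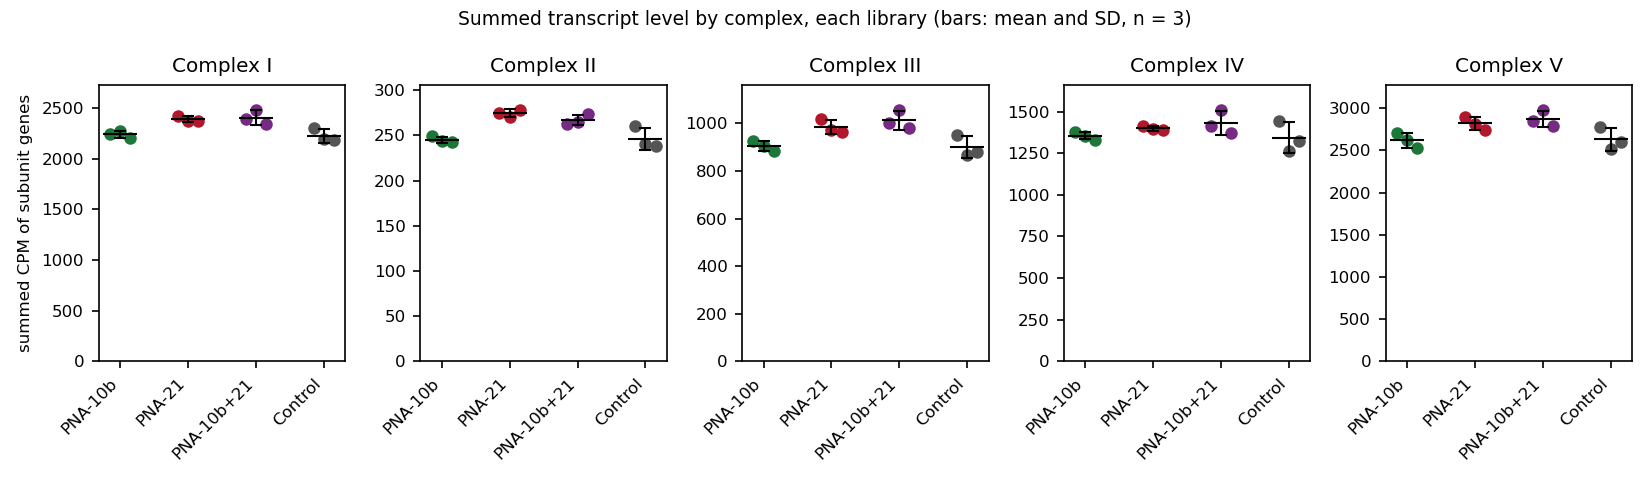
Summed CPM of the subunit genes of each complex (y axis, from 0) in every library (points), with mean and SD of 3 libraries (bars), for PNA-10b, PNA-21, PNA-10b+21 and Control cells from left to right. The PNA-21 points of complexes I, II and III all lie above the Control points, whereas those of complex IV lie within the Control range.

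Gene by gene, 21 of the 80 tested members rose and 1 fell in PNA-21 cells against Control, 18 rose and 1 fell in PNA-10b+21 cells, and 0 moved in PNA-10b cells. A gene is called changed at a Benjamini-Hochberg adjusted p under 0.05 in edgeR's quasi-likelihood test, adjusted over all 15715 genes tested. Of all genes tested, 15.2% rose and 14.6% fell in PNA-21 cells, 13.6% rose and 13.4% fell in PNA-10b+21 cells, and 2.75% rose and 3.74% fell in PNA-10b cells. Of the 79 subunit genes tested, 62 are abundant (mean log2 CPM of at least 5), and among all 6512 such genes 24.2% rose and 18.1% fell in PNA-21 cells, and 21.5% rose and 17% fell in PNA-10b+21 cells. In PNA-10b cells the shares of abundant genes were 4.56% and 5.39%. The members' share that rose, 26.2% and 22.5%, is thus close to that of abundant genes, while the share that fell, 1.25% in both, is under it. The median log2 fold change of the 80 members was 0.09 in PNA-21 and 0.11 in PNA-10b+21 cells, against -0.01 and 0.00 over all genes tested, with 62 and 68 of the 80 above 0. In PNA-10b cells the members' median was 0.01, with 48 above 0. Counted by libraries, 28 members were above all Control libraries in every PNA-21 library and 2 below, against 21.5% and 20.9% of all genes tested. The counts were 25 and 1 in PNA-10b+21 cells, against 20.3% and 19.9%, and 2 and 2 in PNA-10b cells, against 11% and 12.8%.
The changes were small, from 0.13 to 0.53 on the log2 scale for the members that rose in PNA-21 cells and from 0.16 to 0.47 in PNA-10b+21 cells. Both sets share Control libraries. The 16 members that rose in both were NDUFAB1, NDUFS3, NDUFS6, NDUFS8, SDHB, CYC1, UQCRC2, UQCRFS1, COX5A, COX6A1, COX8A, ATP5F1B, ATP5F1C, ATP5F1D, ATP5MC1 and ATP5MC3. By complex, 7 of 35 tested genes of complex I, 2 of 4 of complex II, 3 of 9 of complex III, 3 of 13 of complex IV and 6 of 18 of complex V rose in PNA-21 cells. In PNA-10b+21 cells the numbers were 6, 1, 3, 3 and 5 in the same order. Leaving out single libraries moved the count in PNA-21 cells to between 10 (without Control replicate 3) and 24 (without Control replicate 1), with 12 and 13 left without PNA-21 replicate 1 or 2. In PNA-10b+21 cells it moved to between 12 (without PNA-10b+21 replicate 2) and 25 (without Control replicate 1). Among the members that rose, 9 in PNA-21 and 11 in PNA-10b+21 cells held in every such fit.

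**Figure D2:**
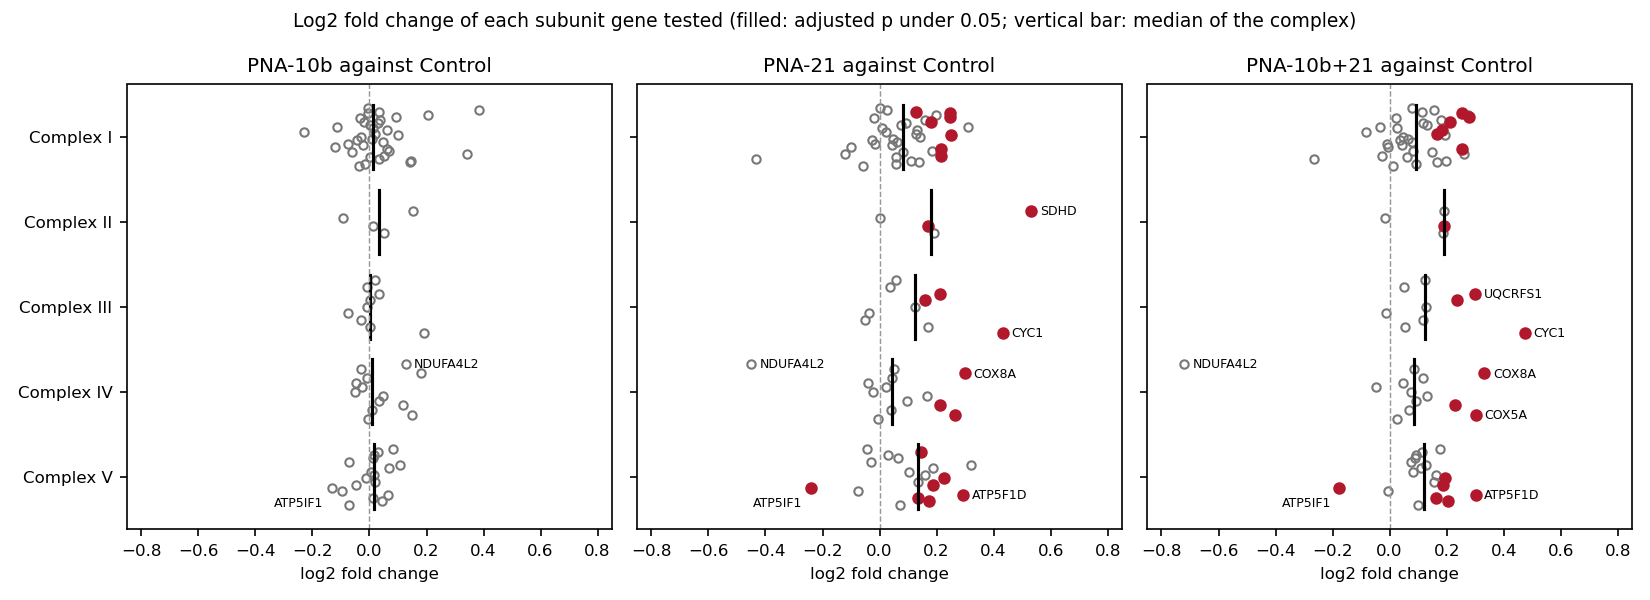
Log2 fold change against Control (x axis) of each tested subunit gene (points, filled where the adjusted p is under 0.05), by complex, with the median of the complex as a vertical bar, for PNA-10b, PNA-21 and PNA-10b+21 cells. Filled points stand right of 0 in the PNA-21 and PNA-10b+21 panels except ATP5IF1, and the PNA-10b panel has 0 filled points.

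Complex I takes electrons from NADH and carries them along iron-sulfur clusters held by its core subunits. Among the nuclear core genes, 3 (NDUFS3, NDUFS8 and NDUFV1) rose in PNA-21 cells and 2 (NDUFS3 and NDUFS8) in PNA-10b+21 cells. NDUFS8, a core subunit that binds iron-sulfur clusters (chr11:68030617-68036644, plus strand), had 144, 145 and 145 CPM in PNA-10b, 180.0, 175 and 163 CPM in PNA-21 and 178, 172 and 169 CPM in PNA-10b+21 libraries, against 154, 142 and 141 CPM in Control libraries. Every library that received sgPNA-21 lay above every other library. Its log2 fold change was 0.25 ± 0.05 (SE) in PNA-21 cells (adjusted p = 0.000937) and 0.25 ± 0.05 in PNA-10b+21 cells (adjusted p = 0.000747), against -0.01 in PNA-10b cells. NDUFS3, of the arm that carries electrons to ubiquinone, had 57.6, 57.7 and 57.9 CPM in PNA-10b, 69.8, 65.1 and 64.4 in PNA-21 and 67.6, 70.6 and 65.2 in PNA-10b+21 libraries, against 61.4, 59.2 and 54.9 in Control libraries. It showed the same order, with log2 fold changes of 0.18 ± 0.06 in PNA-21 (adjusted p = 0.0178) and 0.21 ± 0.06 in PNA-10b+21 cells (adjusted p = 0.00765).
NDUFV1, which binds NADH, rose by 0.13 ± 0.05 in PNA-21 cells (adjusted p = 0.0399), and its 0.12 in PNA-10b+21 cells missed the threshold (adjusted p = 0.0711). The core genes NDUFS1, NDUFS7 and NDUFV2 passed in neither arm, with values from 0.03 to 0.28. NDUFV2 had 16 to 35 counts per library and NDUFS7 94 to 185, and the standard errors of their PNA-21 log2 fold changes were 0.29 and 0.13, against 0.05 for NDUFS8.
Among the 28 accessory genes tested, which surround the core, 4 rose in PNA-21 cells (NDUFA5, NDUFAB1, NDUFB6 and NDUFS6) and 4 in PNA-10b+21 cells (NDUFAB1, NDUFB7, NDUFB9 and NDUFS6). NDUFS6, which binds zinc and is needed late in assembly, had 54.6, 57.6 and 56.9 CPM in PNA-10b, 64.2, 61.7 and 61.9 in PNA-21 and 63.3, 68.5 and 60.7 in PNA-10b+21 libraries, against 53.4, 56.5 and 48.1 in Control libraries. It rose by 0.25 ± 0.06 in PNA-21 (adjusted p = 0.00477) and 0.28 ± 0.06 in PNA-10b+21 cells (adjusted p = 0.00196), with no overlap with Control. NDUFAB1, the mitochondrial acyl carrier protein, had 68.0, 68.6 and 63.2 CPM in PNA-10b, 76.1, 73.5 and 72.6 in PNA-21 and 74.2, 82.1 and 72.4 in PNA-10b+21 libraries, against 64.4, 65.1 and 61.9 in Control libraries. Its log2 fold changes were 0.21 ± 0.06 (adjusted p = 0.00673) and 0.25 ± 0.06 (adjusted p = 0.00204) in the PNA-21 and PNA-10b+21 arms. NDUFB6 had 72.7, 69.2 and 72.2 CPM in PNA-21 libraries, against 65.5, 63.3 and 50.6 CPM in Control libraries. Its rise of 0.25 ± 0.07 (adjusted p = 0.0135) rested on the last of these: without Control replicate 3 it was 0.15 (adjusted p = 0.1). NDUFA5 rose in PNA-21 cells, by 0.21 ± 0.07 (adjusted p = 0.0289), with -0.03 in PNA-10b+21 cells, and the interaction of both sgPNAs did not pass for it (-0.29 ± 0.10, adjusted p = 0.115). NDUFB7 and NDUFB9 passed narrowly in PNA-10b+21 cells, at 0.17 (adjusted p = 0.0499) and 0.18 (adjusted p = 0.0449), and NDUFB9 was at 0.10 without PNA-10b+21 replicate 2. NDUFA12, the complex I gene with the smallest p in PNA-10b cells, stood at 0.15 ± 0.08 there (adjusted p = 0.332).

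Complex II, succinate dehydrogenase, also works in the citric acid cycle. Its iron-sulfur subunit SDHB had 127, 113 and 111 CPM in PNA-10b, 132, 128 and 132 in PNA-21 and 131, 137 and 129 in PNA-10b+21 libraries, against 120.0, 112 and 116 in Control libraries. It rose by 0.17 ± 0.05 in PNA-21 (adjusted p = 0.0209) and 0.19 ± 0.05 in PNA-10b+21 cells (adjusted p = 0.0108). SDHD, a membrane anchor, had 24.6, 32.1 and 34.9 CPM in PNA-10b, 37.9, 41.7 and 40.2 in PNA-21 and 30.9, 27.2 and 36.2 in PNA-10b+21 libraries, against 31.5, 29.4 and 21.1 in Control libraries. All 3 PNA-21 libraries were above the other 9, and the other groups overlapped. The rise of 0.53 ± 0.12 in PNA-21 cells (adjusted p = 0.00254) was the widest of all members, and it held in all 12 fits that left out a library (0.39 to 0.64). In PNA-10b+21 cells SDHD stood at 0.19 ± 0.13 (adjusted p = 0.288), and neither the direct comparison with PNA-21 cells (-0.34 ± 0.12, adjusted p = 0.364) nor the interaction (-0.50 ± 0.17, adjusted p = 0.116) passed. Of its exon bases, 11.2% are shared with another gene on the same strand, and its low values came from the lowest-depth library of the Control, PNA-10b and PNA-10b+21 groups, whereas the lowest-depth PNA-21 library (replicate 2) had the highest value of its group. The part of this in the result was not tested. SDHC, the other anchor, was at 0.00 in PNA-21 and -0.02 in PNA-10b+21 cells. SDHA, the flavoprotein, was at 0.19 ± 0.11 in both arms (adjusted p = 0.188 and 0.211), from 134 to 213 counts per library.

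Complex III oxidizes ubiquinol and reduces cytochrome c. Both of its nuclear-encoded catalytic subunits rose in both arms that received sgPNA-21. CYC1, cytochrome c1 (chr8:144095027-144097525, plus strand), had 85.5, 91.6 and 84.8 CPM in PNA-10b, 110.3, 104 and 96.4 in PNA-21 and 112, 105 and 102 in PNA-10b+21 libraries, against 83.9, 75.4 and 70.1 in Control libraries. All 9 treated libraries were above the Control libraries, and those with sgPNA-21 above those with sgPNA-10b alone. It rose by 0.43 ± 0.07 in PNA-21 (adjusted p = 4.91e-05) and 0.47 ± 0.07 in PNA-10b+21 cells (adjusted p = 1.69e-05), in all 12 fits that left out a library. In PNA-10b cells its 0.19 ± 0.07 missed the threshold (adjusted p = 0.0919), and this call was made without Control replicate 1 (0.26, adjusted p = 0.0424), without the filter on low counts and with the replicate number as a block. UQCRFS1, the Rieske iron-sulfur protein, had 85.1, 87.5 and 81.7 CPM in PNA-10b, 98.0, 93.9 and 95.9 in PNA-21 and 98.9, 109 and 97.5 in PNA-10b+21 libraries, against 86.3, 79.7 and 82.3 in Control libraries. It rose by 0.21 ± 0.05 (adjusted p = 0.0053) and 0.30 ± 0.05 (adjusted p = 0.000312) in the PNA-21 and PNA-10b+21 arms, and PNA-10b libraries overlapped Control.
Of the 7 accessory genes, the core protein gene UQCRC2 rose in both arms, by 0.16 ± 0.06 in PNA-21 (adjusted p = 0.0338) and 0.24 ± 0.06 in PNA-10b+21 cells (adjusted p = 0.00305). It had 228, 216 and 211 CPM in PNA-21 and 228, 244 and 219 CPM in PNA-10b+21 libraries, against 203, 186 and 198 CPM in Control libraries. Its partner UQCRC1 missed the threshold, at 0.12 (adjusted p = 0.0997) and 0.13 (adjusted p = 0.0968). UQCRH, the hinge protein, differed little, at 0.04 and 0.05.

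Complex IV, cytochrome c oxidase, has its catalytic subunits in mitochondrial DNA, and the nuclear genes encode the subunits around them. COX5A, COX6A1 and COX8A rose in both arms, of 13 genes tested. COX5A (chr15:74919791-74938168, minus strand) had 108, 101 and 104 CPM in PNA-10b, 116, 112 and 111 in PNA-21 and 117, 125 and 106 in PNA-10b+21 libraries, against 98.9, 94.2 and 88.8 in Control libraries. It rose by 0.26 ± 0.06 in PNA-21 (adjusted p = 0.00185) and 0.30 ± 0.06 in PNA-10b+21 cells (adjusted p = 0.000596). Its PNA-10b libraries were also above Control, and the 0.15 ± 0.06 there missed the threshold (adjusted p = 0.149). COX8A, one of the smallest subunits, had 44.1, 49.2 and 51.3 CPM in PNA-10b, 53.2, 53.5 and 50.8 in PNA-21 and 55.9, 54.1 and 50.9 in PNA-10b+21 libraries, against 49.0, 42.7 and 35.5 in Control libraries. It rose by 0.30 ± 0.08 (adjusted p = 0.00905) and 0.33 ± 0.08 (adjusted p = 0.00492). Without Control replicate 3 the PNA-21 value was 0.19 (adjusted p = 0.068), and 34.5% of its exon bases lie in another annotated gene on the same strand. COX6A1, the isoform of non-muscle tissue, passed narrowly at 0.21 ± 0.07 (adjusted p = 0.0378) and 0.23 ± 0.07 (adjusted p = 0.0269).
COX4I1, an early-assembling subunit, had 282, 280.2 and 275 CPM in PNA-21 and 281, 297 and 278 CPM in PNA-10b+21 libraries, against 296, 266 and 278 CPM in Control libraries, which overlap throughout. Its log2 fold changes were -0.00 ± 0.05 and 0.03 ± 0.05. COX5B (0.04 and 0.07), COX6B1 (0.10 and 0.09), COX7A2 (-0.02 and 0.08), COX7A2L (0.02 and -0.05) and COX7B (-0.04 and 0.05) did not pass in either arm. The tissue-restricted isoforms COX4I2, COX6B2 and COX7A1 had at most 1, 5 and 8 counts in any library. NDUFA4, once assigned to complex I and counted here with complex IV, was at 0.05 and 0.09. NDUFA4L2, its paralogue that is induced in low oxygen, was at 1.12, 1.43 and 1.27 CPM in PNA-21 and 1.20, 0.92 and 1.00 CPM in PNA-10b+21 libraries, against 2.41, 1.47 and 1.29 CPM in Control libraries. Its -0.45 ± 0.27 (adjusted p = 0.224) and -0.72 ± 0.28 (adjusted p = 0.0612) did not pass, with 13 to 39 counts per library.

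Complex V makes ATP in its F1 head, which is turned by the c-ring in the membrane part, Fo. Of 5 F1 genes, 3 rose in both arms: ATP5F1B, ATP5F1C and ATP5F1D. ATP5F1B, the catalytic beta subunit and the member with the highest level, had 676, 644 and 603 CPM in PNA-10b, 739, 704 and 663 in PNA-21 and 717, 733 and 703 in PNA-10b+21 libraries, against 656, 585 and 625 in Control libraries. It rose by 0.17 ± 0.06 (adjusted p = 0.0227) and 0.21 ± 0.06 (adjusted p = 0.00897). ATP5F1D, the delta subunit of the central stalk (chr19:1241746-1244826, plus strand), had 58.0, 62.1 and 67.4 CPM in PNA-10b, 74.8, 73.8 and 71.3 in PNA-21 and 71.7, 77.9 and 72.0 in PNA-10b+21 libraries, against 62.4, 65.0 and 51.2 in Control libraries. All libraries with sgPNA-21 were above the other 6, and the log2 fold changes were 0.29 ± 0.07 (adjusted p = 0.00422) and 0.30 ± 0.07 (adjusted p = 0.00358). ATP5F1C, the gamma subunit, passed narrowly in PNA-21 cells, at 0.13 (adjusted p = 0.0497), and at 0.16 (adjusted p = 0.0205) in PNA-10b+21 cells. Without Control replicate 2 its PNA-21 value was 0.09 (adjusted p = 0.235). ATP5F1A (0.07 and 0.10) and ATP5F1E (-0.08 and -0.01) did not pass.
The c-ring subunit is encoded by ATP5MC1, ATP5MC2 and ATP5MC3, whose mature proteins are identical. ATP5MC3 had 179.9, 179.5 and 174 CPM in PNA-10b, 214, 209 and 206 in PNA-21 and 206, 207 and 202 in PNA-10b+21 libraries, against 192, 178 and 167 in Control libraries. It rose by 0.23 ± 0.05 (adjusted p = 0.0019) and 0.19 ± 0.05 (adjusted p = 0.00625), with libraries that received sgPNA-21 above all others. ATP5MC1 rose by 0.19 ± 0.07 in both arms (adjusted p = 0.0438 and 0.0478). Without Control replicate 2 these were 0.10 and 0.11 (adjusted p = 0.28 and 0.289). ATP5MC2 stood at 0.13 and 0.15 (adjusted p = 0.0933 and 0.0583). ATP5PF, coupling factor 6 of the peripheral stalk, passed in PNA-21 cells at 0.14 (adjusted p = 0.0469), with 0.11 (adjusted p = 0.132) in PNA-10b+21 cells.
ATP5IF1 encodes the inhibitory factor that blocks ATP hydrolysis by the F1 head (chr1:28236109-28246906, plus strand), and it was the 1 member that fell. It had 115, 115 and 116 CPM in PNA-10b, 108, 109.8 and 103 in PNA-21 and 107, 123 and 106 in PNA-10b+21 libraries, against 129, 121 and 130.02 in Control libraries. All PNA-10b and PNA-21 libraries were below Control, and 1 of the PNA-10b+21 libraries was within the Control range. It fell by 0.24 ± 0.06 on the log2 scale in PNA-21 cells (adjusted p = 0.00295), in all 12 fits that left out a library. In PNA-10b+21 cells it was at -0.18 ± 0.06 (adjusted p = 0.0238), a call lost on leaving out Control replicate 1 or 3 or replicate 1 or 3 of its own group (adjusted p from 0.0739 to 0.118), and without scaling factors (adjusted p = 0.0698). In PNA-10b cells it was at -0.13 ± 0.06 (adjusted p = 0.185). A ratio within each library, chosen after the values were seen, needs no scaling between libraries. ATP5IF1 counts per ATP5F1B count were 0.180 ± 0.0111 in PNA-10b cells, 0.153 ± 0.00510 in PNA-21 cells and 0.156 ± 0.0103 in PNA-10b+21 cells, against 0.203 ± 0.00641 in Control cells (SD, n = 3). The highest treated library, at 0.192, was under the lowest Control library, at 0.196. ATP5F1B itself rose in PNA-21 and PNA-10b+21 cells (0.17 and 0.21 on the log2 scale), which lowers the ratio whatever ATP5IF1 does. The separation from Control is therefore no separate support for a fall of ATP5IF1.

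**Figure D3:**
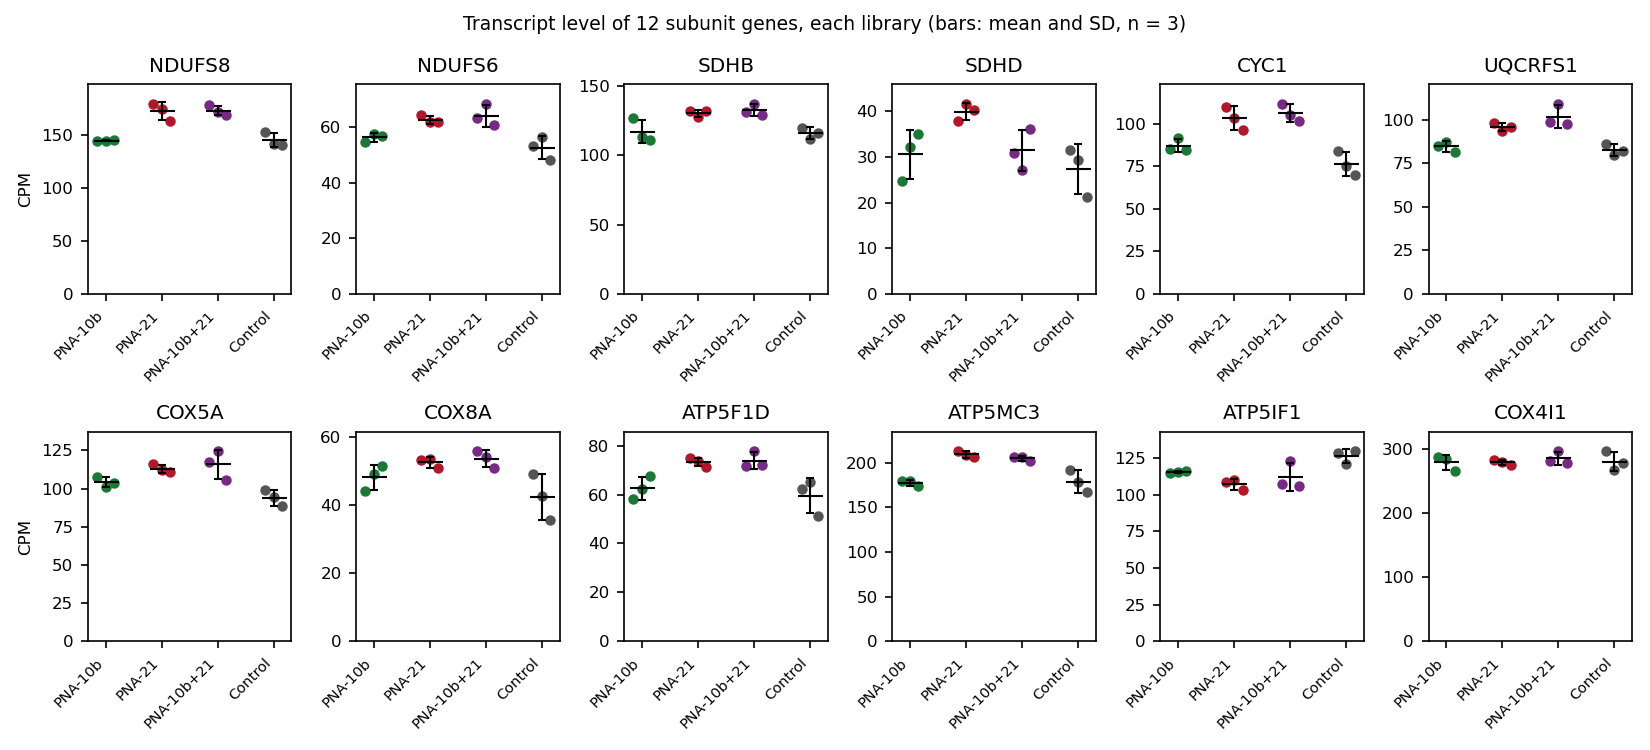
CPM (y axis, from 0) of 12 subunit genes in every library (points), with mean and SD of 3 libraries (bars), for PNA-10b, PNA-21, PNA-10b+21 and Control cells from left to right. NDUFS8, CYC1, UQCRFS1 and ATP5MC3 are higher in both groups with sgPNA-21 than in PNA-10b and Control cells, SDHD is high in PNA-21 cells, ATP5IF1 is lower than Control in PNA-21 cells, and COX4I1 overlaps in all groups.

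Comparisons among the treated groups asked what each sgPNA added to the other, and they share libraries with those above. In PNA-10b+21 against PNA-10b cells, 12 of the 80 members rose and 0 fell, against 4.61% and 5.1% of all genes tested (7.52% in each direction among abundant genes). CYC1 (0.28 ± 0.06, adjusted p = 0.00729), UQCRFS1 (0.27 ± 0.05, adjusted p = 0.00331), NDUFS8 (0.26 ± 0.05, adjusted p = 0.00221) and ATP5F1D (0.24 ± 0.07, adjusted p = 0.0399) had the widest rises. The others that rose were NDUFA8, NDUFAB1, NDUFS3, SDHB, UQCRC2, ATP5F1A, ATP5MC1 and ATP5MC3. Among all 80 members the lowest log2 fold change there was that of NDUFA4L2, at -0.85, which did not pass. Its mean was 1.04 CPM in PNA-10b+21 and 1.89 CPM in PNA-10b cells, from 13 to 39 counts per library. In PNA-21 against PNA-10b cells, 6 rose and 0 fell, against 2.91% and 3.88% of all genes (4.71% and 5.82% among abundant genes). These were NDUFS8 (0.25 ± 0.05, adjusted p = 0.00356), CYC1 (0.24 ± 0.06, adjusted p = 0.0252), ATP5MC3 (0.24 ± 0.05, adjusted p = 0.00544), ATP5MC1 (0.23 ± 0.07, adjusted p = 0.0425), NDUFS3 and UQCRFS1. These counts moved with single libraries. The 12 became 3 and 4 without PNA-10b+21 replicate 1 or 2, 5 and 7 without PNA-10b replicate 3 or 2, and 12 at most. The 6 became 2 without PNA-21 replicate 1 or 2, and 3 without PNA-10b replicate 2. NDUFS8 held in every fit of both comparisons.
In PNA-10b+21 against PNA-21 cells 0 members passed in edgeR's or DESeq2's test, as did 0% of all genes with edgeR. At an unadjusted p under 0.05, 1 member was higher and 2 were lower, of which SDHD and NDUFA5 are described above. Of all 15715 genes tested, 427 were higher and 927 lower at that p. The interaction, which asks whether both sgPNAs together differ from the sum of their separate log2 changes, passed for 0 members with either tool, against 1.48% of genes higher and 1.64% lower with edgeR. At an unadjusted p under 0.05, 3 members were higher and 2 (SDHD and NDUFA5) lower, against 1388 and 1545 of the 15715 genes tested. In PNA-10b cells against Control, where 0 members passed with either tool, 3 were higher (CYC1, COX5A and COX8A) and 1 lower (ATP5IF1) at that p. Of the 15715 genes tested, 1520 were higher and 1715 lower there. In each of these comparisons the members' shares at that p were under those of all genes tested.

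Genes that build, feed or regulate the chain were followed as lists, whose shares can be set beside those of all genes tested against Control (15.2% higher in PNA-21 and 13.6% in PNA-10b+21 cells) and of abundant genes (24.2% and 21.5%). The lists were chosen with earlier results of these data known, so their shares are descriptions and not tests. Of 18 genes of the citric acid cycle and pyruvate dehydrogenase, 11 rose and 0 fell in PNA-21 and likewise in PNA-10b+21 cells (61.1%, medians 0.18 and 0.17). DLD and DLAT, subunits of pyruvate dehydrogenase, were 0.24 ± 0.05 and 0.34 ± 0.07 higher in PNA-21 cells (adjusted p = 0.000993 and 0.00167). FH, fumarase, and CS, citrate synthase, were 0.32 ± 0.06 and 0.24 ± 0.05 higher in PNA-10b+21 cells (adjusted p = 0.000442 and 0.00125). Of 46 assembly factors tested, 10 rose and 2 fell in PNA-21 cells, and 9 rose and 2 fell in PNA-10b+21 cells (21.7% and 19.6% higher, medians 0.09 and 0.10), near the share of abundant genes. NDUFAF2, which acts late in complex I assembly, rose in all 3 treated arms, by 0.27 in PNA-10b cells (adjusted p = 0.0355), 0.31 in PNA-21 cells (adjusted p = 0.00361) and 0.46 in PNA-10b+21 cells (adjusted p = 0.00011). COX11, a copper chaperone of complex IV, rose by 0.45 ± 0.07 in PNA-21 cells (adjusted p = 0.000119), and its interaction was -0.44 ± 0.10 (adjusted p = 0.0275). COX11 was lowest in the library of lowest depth in the Control, PNA-10b and PNA-10b+21 groups (37.4, 43.9 and 44.3 CPM). In PNA-21 cells that library had the highest value (61.6 CPM), and the part of this in the interaction was not tested.
Of 22 regulators of respiratory gene expression, 7 rose and 1 fell in PNA-21 cells, and 7 rose and 0 fell in PNA-10b+21 cells (31.8% higher in both, against 24.2% and 21.5% of abundant genes; medians 0.12 and 0.10). PPARGC1B, a coactivator of mitochondrial genes, had 17.4, 15.4 and 15.5 CPM in PNA-21 and 21.5, 16.1 and 16.7 CPM in PNA-10b+21 libraries, against 11.3, 9.55 and 10.6 CPM in Control libraries. It rose by 0.62 ± 0.11 (adjusted p = 0.000349) and 0.80 ± 0.11 (adjusted p = 2.28e-05). ESRRA, a nuclear receptor that works with such coactivators, rose by 0.46 ± 0.08 (adjusted p = 0.000203) and 0.42 ± 0.08 (adjusted p = 0.000476). In the interaction GABPA, a gene of GABP, was called, at -0.43 ± 0.11 (adjusted p = 0.0343).
A further list of 21 genes covered electron carriers, ubiquinone synthesis (the COQ and PDSS genes) and transport of ADP and phosphate. Of these, 5 rose and 1 fell in both arms, with medians of -0.04 and 0.02. The share that rose, 23.8%, is near that of abundant genes (24.2% and 21.5%). CYCS, cytochrome c, had 148, 166 and 179.9 CPM in PNA-10b, 191, 227 and 205 in PNA-21 and 169, 152 and 171 in PNA-10b+21 libraries, against 140.2, 148 and 123 in Control libraries. It rose by 0.26 (adjusted p = 0.0436), 0.60 (adjusted p = 8.26e-06) and 0.26 (adjusted p = 0.0159) in these 3 arms, and its interaction was -0.60 ± 0.11 (adjusted p = 0.00766). CYCS, too, was lowest in the library of lowest depth in the PNA-10b, PNA-10b+21 and Control groups. In PNA-21 cells that library had its highest value, and the part of this in the interaction was not tested. SLC25A5, which exchanges ADP and ATP across the inner membrane, rose by 0.43 ± 0.06 in both arms with sgPNA-21 (adjusted p = 1.58e-05 and 1.45e-05). VDAC1, a channel of the outer membrane, fell by 0.21 ± 0.05 in both (adjusted p = 0.00454 and 0.00453).
Of 13 low-oxygen modulators of respiration tested, 9 (69.2%) fell in PNA-21 and in PNA-10b+21 cells, with medians of -0.40 and -0.53. Of all genes 14.6% and 13.4% fell, and of abundant genes 18.1% and 17%. HIGD1A was the 1 that rose in PNA-21 cells, by 0.49 (57.0, 65.1 and 58.5 CPM, against 45.9, 47.4 and 34.4 in Control libraries). Its interaction was -0.57 ± 0.13 (adjusted p = 0.0221). HIGD1A was lowest in the library of lowest depth in each group but PNA-21, where that library was highest. The part of this in the interaction was not tested. PDK3, a kinase that inactivates pyruvate dehydrogenase, fell in all 3 treated arms, by 0.35, 0.57 and 0.69 on the log2 scale in the order PNA-10b, PNA-21, PNA-10b+21 (adjusted p = 0.0107, 2.11e-05 and 2.37e-06). BNIP3, which marks mitochondria for removal, had 271, 352 and 277 CPM in PNA-21 and 211, 259 and 299 CPM in PNA-10b+21 libraries, against 523, 518 and 517 CPM in Control libraries. It fell by 0.79 ± 0.09 in PNA-21 (adjusted p = 3.6e-06) and by 1.02 ± 0.10 in PNA-10b+21 cells (adjusted p = 1.59e-07) on the log2 scale.

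**Figure D4:**
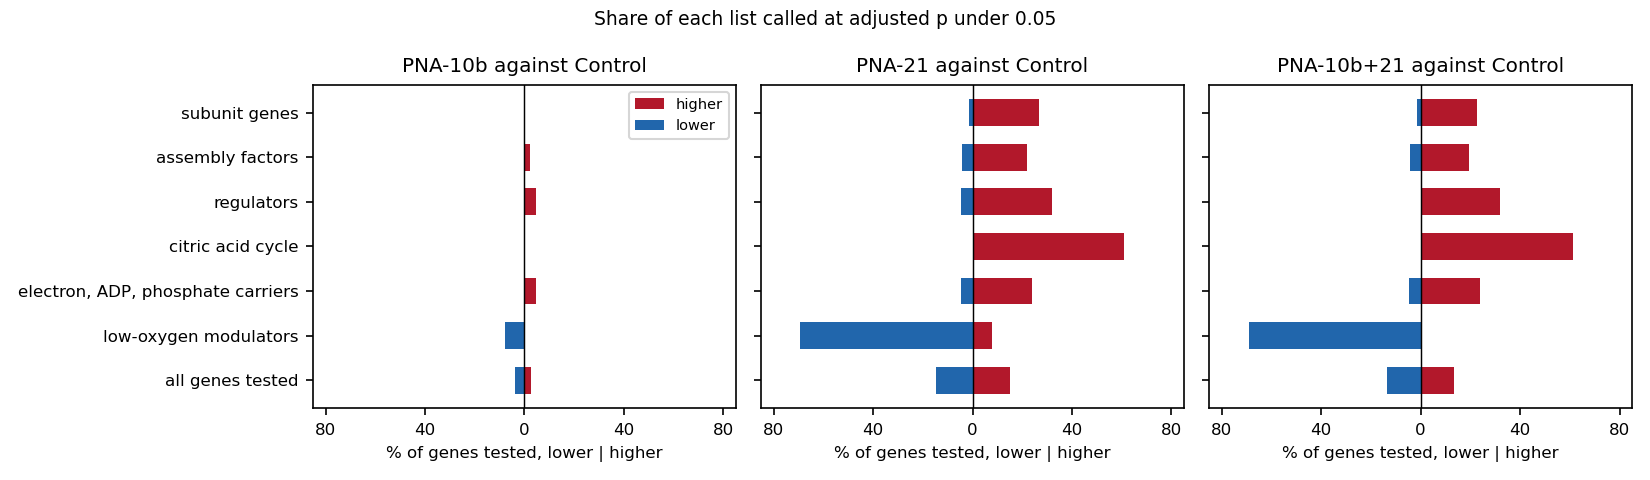
Share of the tested genes of each list (x axis, percent) called lower (left of 0) or higher (right of 0) at an adjusted p under 0.05, for PNA-10b, PNA-21 and PNA-10b+21 cells against Control, with all genes tested at the bottom. Citric acid cycle genes have 11 of 18 higher and low-oxygen modulators 9 of 13 lower in both arms with sgPNA-21, while subunit genes have 1 lower. The lists were chosen with earlier results of these data known.

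Levels of the subunit genes were compared per kilobase of annotated exon, on the CPM scale, in Control cells. ATP5F1B was highest at 268 ± 15.3 CPM per kb (SD, n = 3), above NDUFS5 at 225 ± 18.5, NDUFB7 at 144 ± 11.9 and COX6B1 at 133 ± 12.9. NDUFB7 and COX6B1 did not differ beyond their spread. The order ATP5F1B, NDUFS5, NDUFB7, COX6B1 was also that of the means in PNA-10b, PNA-21 and PNA-10b+21 cells. The median over genes was 37.5 CPM per kb for complex III, 35.1 for complex IV, 26.5 for complex V, 16.4 for complex I and 8.08 for complex II. At the low end, the subunit genes NDUFA7 (0.324 CPM per kb), NDUFV2 (0.521), NDUFA13 (0.886), NDUFS7 (1.08) and SDHA (1.24) were far under their partners in the same complex. The divisor counts every annotated exon base of a gene. It was 7533 bases for NDUFS7 and 8383 for SDHA, but 1413 for NDUFA7, against 531 for NDUFB7 and 548 for NDUFS5. Its part in this order was not tested.
Of the 10 tested subunit genes with the lowest level, 7 share at least 5% of their exon bases with another gene on the same strand, as do 8 of the 10 with the widest spread between replicates, against 19 of all 79. The 20 subunit genes with such sharing had a median of 7.28 CPM per kb and the other 64 a median of 33.4. Reads in shared exons can be left uncounted or go to the other gene, the counting setting is not given in the sources used here, and its part in these levels was not tested. Sharing on the same strand was 0% for SDHA and NDUFS7. On the opposite strand it was 0% for SDHA and 49.1% for NDUFS7, and the strand setting of the counting is not given either.
NDUFC2, a complex I subunit with 16.3% shared, had the widest spread, with 3.77, 6.48 and 8.31 CPM in PNA-10b, 8.56, 9.01 and 7.71 in PNA-21 and 6.42, 4.74 and 8.60 in PNA-10b+21 libraries, against 8.45, 7.84 and 3.63 in Control libraries. Its low values came from PNA-10b replicate 1, PNA-10b+21 replicate 2 and Control replicate 3, the library of lowest depth in each of these groups. In PNA-21 cells the library of lowest depth, replicate 2, had the highest value. SDHD and ATP5MG, a membrane subunit of complex V, were lowest in the same 3 libraries within their groups, with 12.3, 12.6 and 9.69 CPM for ATP5MG, which in PNA-21 cells was also lowest in replicate 2 (15.6 CPM).

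**Figure D5:**
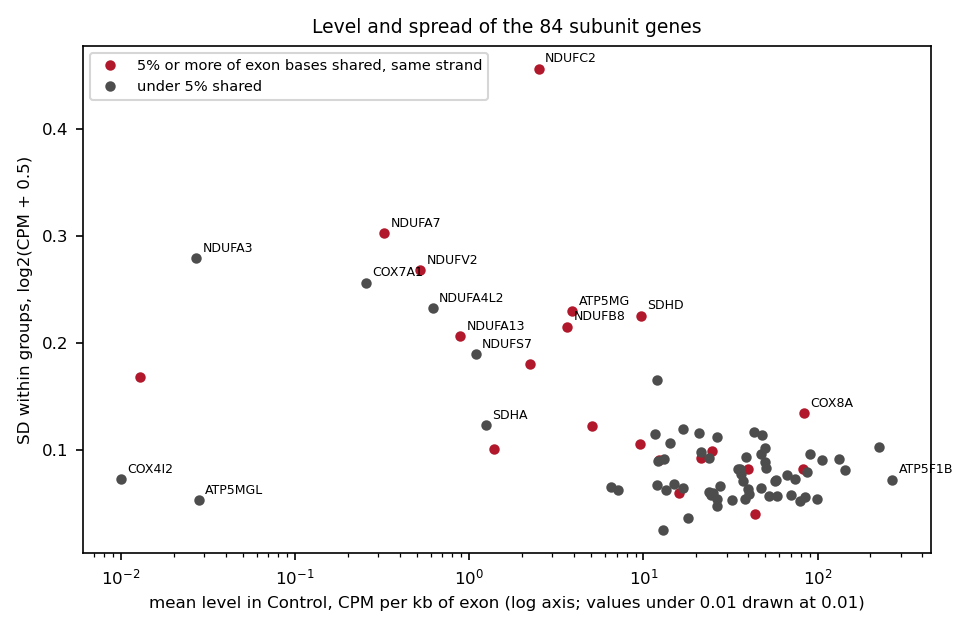
Standard deviation within groups of log2(CPM + 0.5) (y axis) against the mean level in Control cells in CPM per kb of exon (x axis, log scale) for the 84 subunit genes (points, coloured by whether 5% or more of exon bases are shared on the same strand). NDUFC2, NDUFA7, NDUFV2 and SDHD have wide spreads for their level and share exon bases, and ATP5F1B is at the right end at 268 CPM per kb.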

How the data were processed

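Gene-level mRNA counts of 12 U87 libraries were analysed. The authors deposited raw counts per Ensembl gene, as whole numbers. The submitters' processing notes name hg38, HTSeq 0.11.0, HISAT2 2.1.0 and SAMtools 1.7, and libraries were stranded (TruSeq), per the labels' protocols. The strand setting of the counting is not given in the sources used here, nor is the annotation release. Members and lists were chosen with earlier results of these data known. Groups came from the sample titles. With edgeR 4.0.16 (R 4.3.3), genes were kept by filterByExpr (minimum count 10; 15715 of 35741), scaled by TMM and fitted in 1 quasi-likelihood model with a mean per group over 12 libraries. P-values were adjusted by Benjamini-Hochberg over all genes tested, threshold 0.05. The standard error is the log2 fold change divided by the square root of F. CPM are TMM-scaled. Total counts ran from 12846676 to 18305820 per library. The steps were tested on simulated data, with changes planted in PNA-21 libraries that were wider than most of those reported here for members. Named with values were the called members of largest change (up to 8 per direction against Control, 4 elsewhere), the smallest p per complex, isoform pairs and the catalytic core, and up to 4 called genes of smallest p per list. NDUFC2 and ATP5MG were added for their spread, NDUFA3, NDUFA7, NDUFA13 and NDUFS5 for their level, and other called members, UQCRH and the lowest members for completeness. The values of 1 member are not reported here. Exon sharing and 3′ UTRs came from GENCODE release 29. Alternatives were RLE, upper-quartile and no scaling factors, no filter, DESeq2 1.42.0, a replicate block, fits of only the 2 groups compared, and leaving out each library.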

Additional observations from a re-analysis of the deposited data

How the results depend on the processing

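Choices of scaling and filter moved counts of called members, and no value that passed the threshold changed sign. Values near 0 that had not passed did, such as the PNA-10b log2 ratios of complexes II and V (-0.0065 and -0.0072, against 0.019 and 0.019 without scaling factors). With upper-quartile factors, 12 members rose in PNA-21 against Control cells, and in PNA-10b+21 against PNA-10b cells 7 rose and 1 fell. With total counts and no scaling factors, 32 rose in PNA-21 and 34 in PNA-10b+21 against Control cells, 0 fell in PNA-10b+21 cells, and 11 rose in PNA-21 against PNA-10b cells. The summed log2 ratios to Control were then 0.15 for complex I and 0.21 for complex II in PNA-21 cells, and 0.16 and 0.16 in PNA-10b+21 cells. The median log2 fold change of all genes shifted by under 0.1 between scalings (0.04 at most without factors and -0.03 at the lowest with upper-quartile factors). The share of all genes called under each of these scalings is not given here, so the member counts above have no background beside them. Without the filter on low counts, 1 member (CYC1) rose in PNA-10b against Control cells, and 2 (SDHD and NDUFA5) fell in PNA-10b+21 against PNA-21 cells and in the interaction. With only the 2 groups compared in the fit, 1 member fell in PNA-10b+21 against PNA-10b cells. DESeq2 gave 18 higher and 1 lower in PNA-21, and 15 higher and 1 lower in PNA-10b+21 against Control cells. The causes were not tested.

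Replicate numbers are shared between groups, but same-numbered libraries did not deviate together (r from -0.06 to 0.11 over 18 pairs of libraries, 1 of them over 0.1, against -0.09 to 0.12 for different numbers). With the replicate number as a block, 1 member (CYC1) rose in PNA-10b cells, 21 in PNA-21 cells and 20 in PNA-10b+21 against Control cells. It gave 6 for PNA-21 against PNA-10b cells and 14 for PNA-10b+21 against PNA-10b cells, and changed no call of the other member counts.

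Leaving out single libraries gave 0 to 1 higher in PNA-10b cells, 10 to 24 higher in PNA-21 cells and 12 to 25 higher and 0 to 1 lower in PNA-10b+21 against Control cells. It gave 2 to 7 higher in PNA-21 against PNA-10b cells, 3 to 12 higher and 0 to 1 lower in PNA-10b+21 against PNA-10b cells, and 0 to 2 lower in the interaction. The summed log2 ratio of complex II in PNA-10b against Control cells ran from -0.028 to 0.037.
Depth limits the members with few counts, such as NDUFA7 (3 to 12 per library), NDUFV2 (16 to 35) and NDUFA4L2 (13 to 39). With 3 libraries against 3, an exact permutation test of a single value could not go below 0.1.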
